A study of Mus musculus with 10 samples.

Results

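S100 proteins and annexins were followed as a group of 10 genes, S100a4, S100a6, S100a10, S100a11, S100a16, Anxa1, Anxa2, Anxa3, Anxa5 and Anxa6. A probe set was taken for a gene when the platform annotation named that gene and no other, which gave 18 of the 45265 probe sets of the series, 14 on the array type MOE430A and 4 on MOE430B, for 9 of the 10 genes. In all, 18194 genes of the series are named by such a probe set. The probe set that lists S100a11 also lists other genes, so S100a11 was not analysed here. RNA came from mouse embryos at embryonic day 5.5 from B6SJLF1×CerlP-GFP matings, whose anterior visceral endoderm is fluorescent. Per the labels' protocols, the anterior distal fragments (Ad) held that fluorescent endoderm with the epiblast beneath it. The posterior proximal fragments (Pp) held visceral endoderm and epiblast cut from the opposite side, just below the border with the extraembryonic part. The remaining RNA was from the whole embryo. None of the embryos had been treated. Each array type has 2 Ad arrays (replicates 1 and 2 on MOE430A, 3 and 4 on MOE430B), 2 Pp arrays numbered the same way, and 1 whole-embryo array. The labels do not say how many embryos went into an array or that replicates came from separate embryos, so a p-value covers no more than the spread among these few arrays.

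S100 proteins are small calcium sensors with a pair of EF-hand loops. Most work as dimers that expose a binding face for a target protein once calcium is bound. Annexins bind acidic phospholipid of membranes through a core of calcium-binding repeats, and their variable N-terminal tail takes up partners. The families meet there: the S100a10 dimer, which no longer needs calcium, binds the tail of annexin A2, and S100a11 binds that of annexin A1. Members of both families are known for high expression in stroma, in spread or migrating cells and in many epithelia.

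The deposited values are signals in arbitrary units, which can be compared between arrays of 1 type but not between types or between probe sets. The median signal of an array was 590.3 to 644 for MOE430A and 56.8 to 61.0 for MOE430B. Probe sets entered a test when their mean over the 5 arrays passed a limit, which in signal is 464 for MOE430A and 37.2 for MOE430B. Differences are given on the scale log2(signal + pseudocount), with a pseudocount of 248 on MOE430A and 10.5 on MOE430B, after each array was centred on its median. The pseudocount draws differences towards 0, most for dim probe sets. A ratio taken from the printed signals can therefore come out wider than the log2 difference beside it implies. Centring shifted arrays by -0.057 to 0.064 on MOE430A and -0.065 to 0.048 on MOE430B. For small differences the ratio can thus also be narrower, or differ in sign. Anxa6 (1429247_at) had means of 944 in Ad and 892 in Pp but a log2 difference of -0.012. A difference is called 2-fold where it reaches 1 on the log2 scale with the pseudocount. No reads or counts underlie a signal, and precision is limited by the number of arrays. The 10 genes were put together with results of these arrays known, the lower S100a6 signal of the fragments among them, so the difference between whole embryo and fragments is described without a test.

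Promoters were read for the members whose signal in the whole embryo stood highest over the fragments and that had a single entry. The RefSeq table (GRCm38.p6) holds the 250 bases before and 50 bases after a gene start for 7 of the 10 genes; S100a10, Anxa3 and Anxa6 were not analysed here. Below, capitals mark matches, on either strand, to 5 motifs: the TATA box (TATAAA), the GC box (GGGCGG), the CCAAT box (CCAAT), AP-1 (TGANTCA) and the serum response element called CArG box.
S100a6, GRCm38.p6 chr3:90612644-90612943, plus strand: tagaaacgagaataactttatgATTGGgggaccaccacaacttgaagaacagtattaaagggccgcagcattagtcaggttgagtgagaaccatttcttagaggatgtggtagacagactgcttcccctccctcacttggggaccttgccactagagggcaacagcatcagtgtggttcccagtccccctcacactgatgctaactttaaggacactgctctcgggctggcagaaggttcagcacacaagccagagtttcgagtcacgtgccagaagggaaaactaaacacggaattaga
Anxa1, GRCm38.p6 chr19:20390622-20390921, minus strand: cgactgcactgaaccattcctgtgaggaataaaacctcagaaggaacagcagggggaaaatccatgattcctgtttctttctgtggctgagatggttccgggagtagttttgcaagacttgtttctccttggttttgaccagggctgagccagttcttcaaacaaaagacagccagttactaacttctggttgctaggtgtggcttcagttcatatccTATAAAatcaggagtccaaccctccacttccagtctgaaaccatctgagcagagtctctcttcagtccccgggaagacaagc
Anxa2, GRCm38.p6 chr9:69453433-69453732, plus strand: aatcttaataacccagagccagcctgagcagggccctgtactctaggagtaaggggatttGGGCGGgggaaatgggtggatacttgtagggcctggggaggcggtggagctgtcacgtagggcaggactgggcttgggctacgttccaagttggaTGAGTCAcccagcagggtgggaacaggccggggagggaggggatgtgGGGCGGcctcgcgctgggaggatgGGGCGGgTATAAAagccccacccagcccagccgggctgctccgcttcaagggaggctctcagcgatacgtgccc
Anxa5, GRCm38.p6 chr3:36475838-36476137, minus strand: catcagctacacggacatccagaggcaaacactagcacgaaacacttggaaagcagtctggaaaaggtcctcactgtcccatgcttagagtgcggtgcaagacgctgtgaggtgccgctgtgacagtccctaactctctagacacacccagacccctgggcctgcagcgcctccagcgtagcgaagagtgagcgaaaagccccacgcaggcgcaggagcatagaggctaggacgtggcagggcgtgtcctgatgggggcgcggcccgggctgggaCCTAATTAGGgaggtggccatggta
The capitals in S100a6 are a CCAAT box on the other strand, and those in Anxa1 are a TATA box. Anxa2 holds 3 GC boxes, an AP-1 match and a TATA box, and Anxa5 a CArG box just after the start. Of the 7 entries for analysed members, among them a pair for S100a16, 3 held a TATA box (13.6% of all 32851 promoters did), 2 a GC box (35.7%), 1 a CCAAT box (37.4%), 2 an AP-1 match (7.81%) and 1 a CArG box (1.63%). No motif searched was found in all 4 printed promoters, and the signals of all 4 genes were higher in the whole embryo. GC content was 49.3% for S100a6, 47.3% for Anxa1, 63.7% for Anxa2 and 60.3% for Anxa5, against a median of 52.7% over all promoters. A match describes letters only, and binding was not measured.

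Each of the 4 analysed S100 members had its highest MOE430A signal in the whole embryo. S100a6, calcyclin, a partner of the ubiquitin-ligase adaptor Cacybp, was at 219.5 and 493 in Ad, 275 and 458 in Pp and 6449.8 in the whole embryo (probe set 1421375_a_at). The fragments overlapped each other and all lay far below the whole embryo. The log2 difference between whole embryo and fragments was 3.41, rank 5 of 22626 probe sets, and it lay between 3.02 and 4.14 over all settings tried. The fragment mean was under the limit signal, so the size of this difference depends most on the pseudocount.

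S100a16, a calcium sensor found in many tissues, was at 1407 and 1417 in Ad, 1648 and 1445 in Pp and 4767 in the whole embryo, a log2 difference of 1.46. It is the one member of the group that stood over 2-fold higher in the whole embryo on both array types. On MOE430B another S100a16 probe set was at 128 and 108 in Ad, 111 and 132 in Pp and 1258 in the whole embryo. That is a log2 difference of 3.30, rank 33 of 22511 probe sets. The fragments were tightly grouped on both types, with SDs of 114 around 1479 and of 11.9 around 119.8 (n = 4).

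S100a10, the annexin A2 partner also called p11, had the brightest probe set of the group. That probe set (1456642_x_at) was at 8147 and 7506 in Ad, 5120.2 and 5881 in Pp and 11721 in the whole embryo, a log2 difference of 0.74 from the fragments. The suffix x marks a probe set that may also bind other transcripts. The other MOE430A probe set for S100a10 (1416762_at) was at 2581 and 2410.0 in Ad, 1024 and 1809 in Pp and 5161 in the whole embryo, a log2 difference of 1.28. Both therefore have the same order, whole embryo, then Ad, then Pp, with no overlap. The MOE430B probe set for S100a10 did not follow it: its 5 values lay between 40.8 and 50.9, near the limit of 37.2.

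S100a4, known as a marker of fibroblasts and of motile cells that binds non-muscle myosin, was dim throughout. It was at 126 and 96.7 in Ad, 99.7 and 95.8 in Pp and 413 in the whole embryo. The whole embryo was highest, but even that value was under the limit of 464, so the probe set entered no test.

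**Figure D1:**
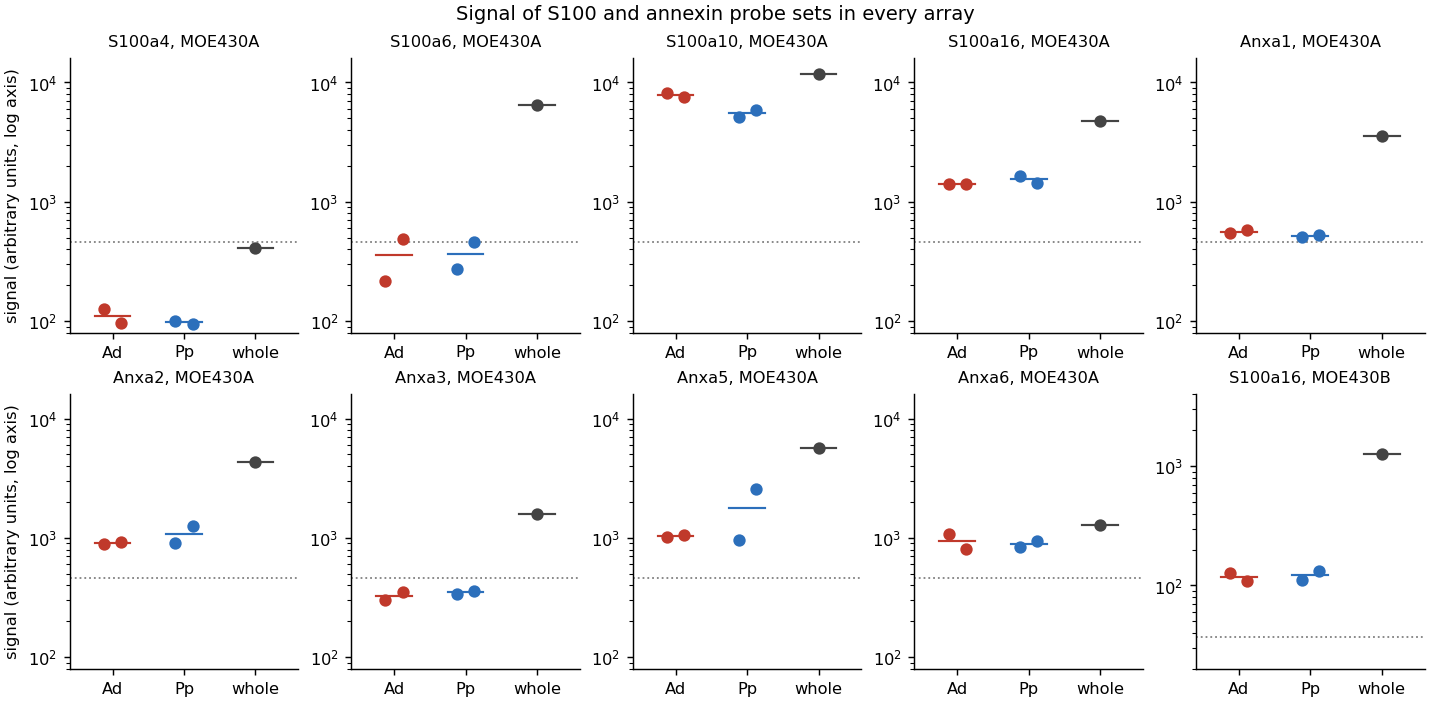
Signal in every array on a log axis (arbitrary units), for the brightest MOE430A probe set of each of the 9 genes and the MOE430B probe set of S100a16; points are arrays, short lines group means, and the dotted line the limit signal (464 on MOE430A, 37.2 on MOE430B). The whole-embryo point is the highest in each panel, by the widest step for S100a6 (6449.8 against at most 493), and S100a10 is the gene whose Ad points clearly lie above its Pp points.

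Of the annexins, 4 stood at least 2-fold higher in the whole embryo. Anxa1, a calcium-dependent phospholipid binder also known as lipocortin with anti-inflammatory action, was at 549 and 578 in Ad, 506 and 532 in Pp and 3529 in the whole embryo. Its fragments agreed closely (541 ± 29.9, SD, n = 4), and the log2 difference of the whole embryo from them was 2.18, rank 46 of 22626. A second Anxa1 probe set, on MOE430B, was at 34.6 to 61.9 in fragments and 58.1 for the whole embryo, inside the range of the fragments.

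Anxa2, which with S100a10 forms a tetramer at the plasma membrane and serves as a plasminogen co-receptor, was at 886 and 926 in Ad, 908 and 1267 in Pp and 4312 in the whole embryo. The log2 difference from the fragments was 1.80. The other Anxa2 probe sets were dim. One was at 22.6 to 51.5 in fragments and 228 for the whole embryo, and the last at 206 to 223 and 203, with the whole embryo lowest. Both lay under the limit, so the Anxa2 result rests on 1 probe set.

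Anxa5, the annexin whose protein is used to stain exposed phosphatidylserine on dying cells, was at 1010 and 1061 in Ad, 958 and 2594 in Pp and 5702 in the whole embryo. The log2 difference from the fragments was 1.87, and Pp replicate 2 stood apart from the other fragments. Anxa3, another phospholipid-binding annexin, was at 304 and 351 in Ad, 339 and 361 in Pp and 1581 in the whole embryo, a log2 difference of 1.56. Like S100a6, it was under the limit in the fragments and entered the test through the whole embryo alone.

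Anxa6, the annexin with a doubled core, had the smallest step by its brightest probe set. It was at 1078 and 809.8 in Ad, 846 and 938 in Pp and 1280.0 in the whole embryo, a log2 difference of 0.32. A second probe set was at 509 to 606 in fragments and 914 for the whole embryo, a log2 difference of 0.46. On MOE430B Anxa6 was at 125 and 121 in Ad, 67.4 and 109 in Pp and 104 in the whole embryo, inside the fragments. The remaining Anxa6 probe set lay between 181 and 207 in all arrays, under the limit.

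In all, the whole embryo was above all 4 fragments in 12 of 14 member probe sets on MOE430A, against 18.7% of all probe sets, and in 2 of 4 on MOE430B, against 22.6%. It was below all of them in 1 of 14, a dim Anxa2 probe set, and 0 of 4, where 43.8% and 25.2% of all probe sets were. It was also at least 2-fold higher in 7 of 14 on MOE430A, for 7 of the 9 genes if the fainter S100a10 probe set is counted for its gene (the others were S100a6, S100a16, Anxa1, Anxa2, Anxa3 and Anxa5). Among all MOE430A probe sets 1.23% were, and 0.0751% were as far lower. On MOE430B it was 1 of 4, against 1.88%, and 0.937% of all probe sets there were as far lower. The median log2 difference over the 14 MOE430A probe sets was 1.05, with 1.28 for S100 and 0.69 for annexin probe sets, beside -0.059 over all 22626. These counts describe a contrast that was known when the genes were chosen. In tissue RNA, fewer cells of a type and less RNA per cell cannot be told apart.

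**Figure D2:**
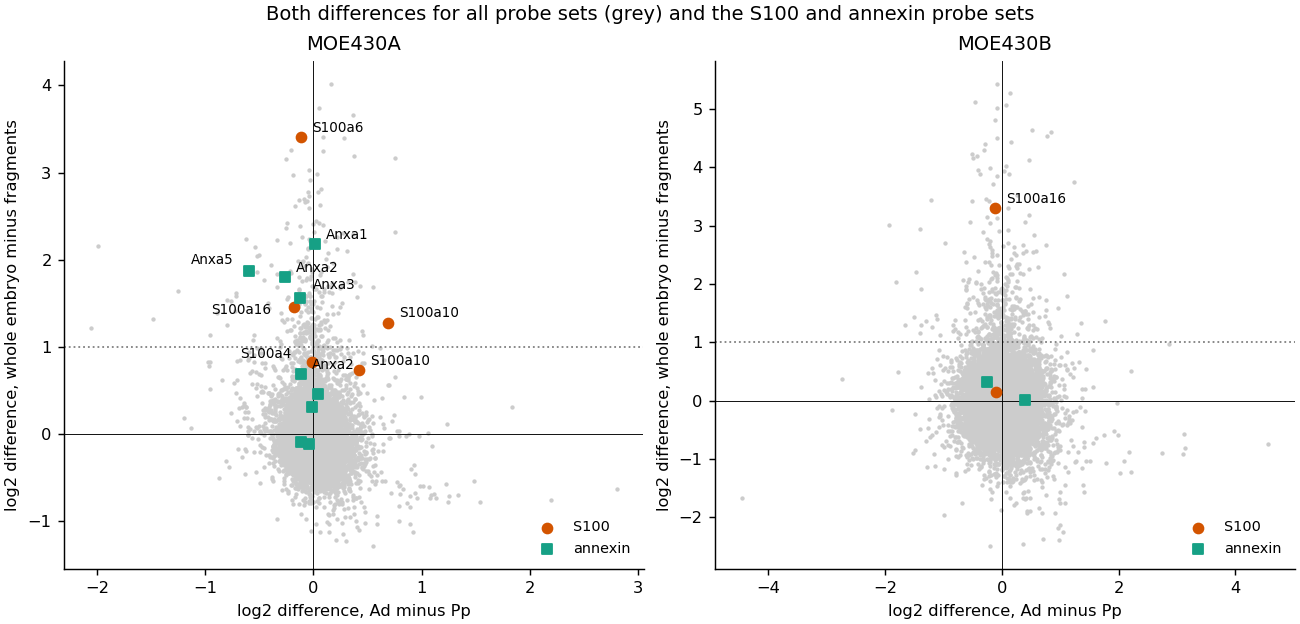
Log2 difference between Ad and Pp (horizontal) and between whole embryo and fragments (vertical) for all probe sets (grey) and for the S100 (circles) and annexin (squares) probe sets on each array type; the dotted line is a 2-fold difference. Member points spread up the vertical axis, to 3.41 for S100a6, and stay between -0.60 and 0.69 on the horizontal one.

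Between the fragments, none of these genes passed the test. S100a6 and Anxa3 entered it on MOE430A through the whole embryo alone and are left out of the counts here. Of the member probe sets whose fragments were above the limit, 8 on MOE430A and 4 on MOE430B, 0 passed limma's moderated test at a Benjamini-Hochberg adjusted p of 0.05. Of all tested probe sets, 0.169% passed on MOE430A (0.162% higher in Ad, 0.00737% lower) and 0.111% on MOE430B (0.104% higher, 0.0074% lower). At an unadjusted p under 0.05 in limma there were 2 of 8 (11.7% of all) and 0 of 4 (10.4% of all). Both of the former were S100a10.

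S100a10 was nearest to a difference. Its brightest probe set was 7826 ± 453 in Ad and 5500.6 ± 538 in Pp (SD, n = 2 each), a log2 difference of 0.42 (SE 0.092, 95% confidence interval 0.20 to 0.65, limma adjusted p = 0.234). The other one was 2496 ± 121 in Ad and 1417 ± 555 in Pp, a log2 difference of 0.69 (SE 0.22, interval 0.16 to 1.23, limma adjusted p = 0.356). Both Ad arrays lay above both Pp arrays in each probe set, and the sign held in every setting and with any 1 array left out. The MOE430B probe set gave -0.10 (interval -0.47 to 0.26). Its binding partner Anxa2 leaned the other way, at -0.27 (interval -0.60 to 0.067, limma adjusted p = 0.494). The difference between these genes was not tested.

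S100a16 gave -0.18 on MOE430A (interval -0.37 to 0.013) and -0.11 on MOE430B (interval -0.48 to 0.26). For Anxa1 on MOE430A the interval was narrow, from -0.16 to 0.18 around 0.012, and for its MOE430B probe set it ran from -0.81 to 0.31. S100a6 gave -0.11 (interval -0.72 to 0.49) and Anxa3 -0.13 (interval -0.32 to 0.065), from fragment signals under the limit. The replicates of both fragments differed by more than 1.5-fold in S100a6 signal. Anxa6 gave -0.012 and 0.044 on MOE430A and 0.39 on MOE430B (interval -0.10 to 0.88). After centring, both Ad arrays lay above both Pp arrays in 2 of the 8 MOE430A probe sets (16.2% of all tested) and 1 of 4 on MOE430B (19.3%), and below them in 2 of 8 (29.1%) and 0 of 4 (23.4%). The 2 lower ones were S100a16 and Anxa2. For Anxa2, and for Anxa3 outside these counts, the deposited values of Ad and Pp overlap, and centring parts them.

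**Figure D3:**
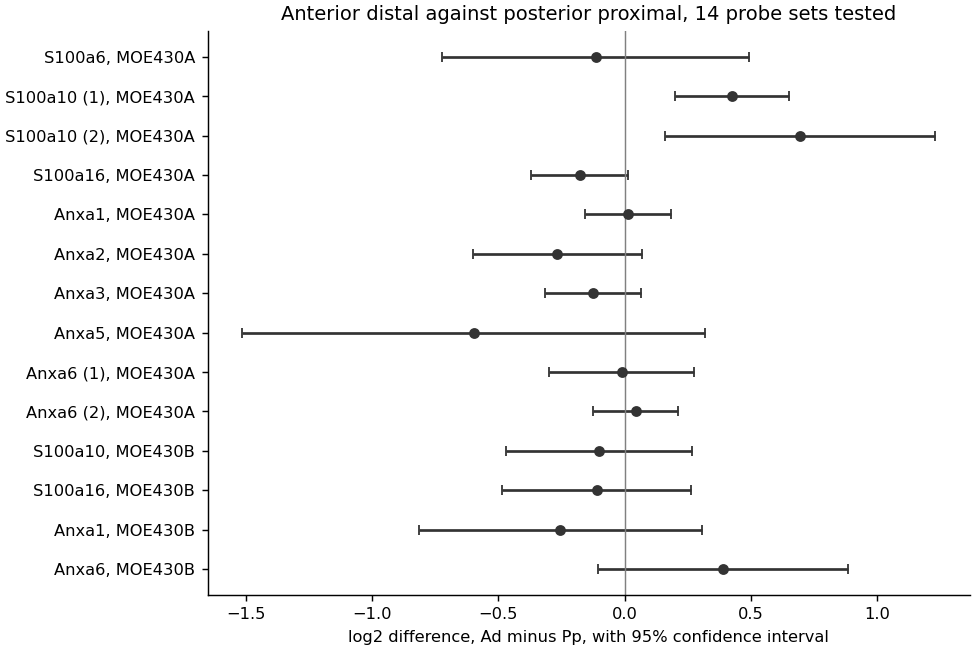
Log2 difference between Ad and Pp with its 95% confidence interval from limma for the 14 tested member probe sets; the numbers 1 and 2 mark the brighter and the fainter probe set of a gene. The intervals of both S100a10 probe sets on MOE430A lie above 0 (0.20 to 0.65 and 0.16 to 1.23), though neither passed after adjustment, and that of Anxa5 is the widest (-1.51 to 0.32).

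The replicates of Pp on MOE430A differed for several members. Anxa5 was 1.25 higher there than in Pp replicate 1 on the log2 scale, and 0.103% of the tested probe sets had a larger gap in that direction. The gap was 0.71 for the fainter S100a10 probe set (0.390% of probe sets), 0.45 for S100a6 (1.5%) and 0.40 for Anxa2 (2.1%), but 0.061 for Anxa1 and -0.15 for S100a16. Of the 6 listed extraembryonic ectoderm markers, 5 had their highest fragment signal in the same array, and Tfap2c did not (1241 there, 1052 to 1295 in the others). The summed signal of the list was 9540 in Pp replicate 2, 4635 in Pp replicate 1, 4742 to 4865 in Ad and 9226 in the whole embryo, with Elf5 at 2432 against 601 and 296 to 340.2. Of the 7 measured ectoplacental and giant cell genes 3 were highest there. No share over all probe sets stands beside these counts of genes, so they show no excess by themselves. Hand1, a trophoblast regulator, was at 1248 against 435 to 477 in the other fragments, but Ascl2 (1062 against up to 1062) and Gata2 (951 against up to 925) barely differed. Their part in the Anxa5 signal was not tested.

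Leaving that array out took Anxa5 from -0.60 to 0.027 in Ad minus Pp (limma adjusted p = 0.911), while both S100a10 probe sets passed, at 0.53 (limma adjusted p = 0.00521) and 1.04 (2.4e-05). Without Pp replicate 1 instead, Anxa5 (-1.22, limma adjusted p = 1.9e-06), Anxa2 (-0.47, 0.00627) and the fainter S100a10 probe set (0.34, 0.0396) passed. In both fits the spread came from the Ad pair alone, and 503 and 805 probe sets passed in all. Without either Ad array 0 members passed. Which members passed thus differed with the Pp array that was kept. With any 1 of the 4 arrays left out, both S100a10 probe sets stayed higher in Ad. Anxa2, Anxa3 and the MOE430A probe set of S100a16 stayed lower. Without Pp replicate 2, however, Anxa2 was only at -0.065, near the median of -0.039 over all probe sets.

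Many S100 genes lie side by side on chromosome 3, which allows neighbours to be compared. S100b, S100g and S100z lie on other chromosomes. In the order S100a1, S100a13, S100a14, S100a16, S100a3, S100a2, S100a4, S100a5, S100a6, S100a7a, S100a8 and S100a9, no other protein-coding gene of the RefSeq annotation lies in between. S100a11 and S100a10 lie farther along as direct neighbours of each other, with 54 protein-coding genes between S100a11 and S100a7l2, the S100 gene before it. Within the row, genes with a higher signal in the whole embryo than in fragments lie next to flat ones. S100a6 (log2 difference of whole embryo from fragments 3.41) has beside it S100a5 at -0.081, with 481 to 555 in fragments and 514 for the whole embryo. S100a16 (1.46) lies between S100a14 at -0.086 and S100a3 at -0.12. S100a4 (0.83) comes before S100a5. Of these genes, S100a14 (94.7 to 135 in fragments) and S100a4 lay under the limit of 464. S100a3 (486 to 536) and S100a5 lay just over it. At the near end, S100a1, a calcium sensor of muscle, had 1015 to 1447 in fragments against 2785 for the whole embryo (1.04), and its neighbour S100a13 at 0.14. S100a8 and S100a9, the calprotectin pair of neutrophils and macrophages, were at 0.38 and -0.089 with signals of at most 315.4 in any array.

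**Figure D4:**
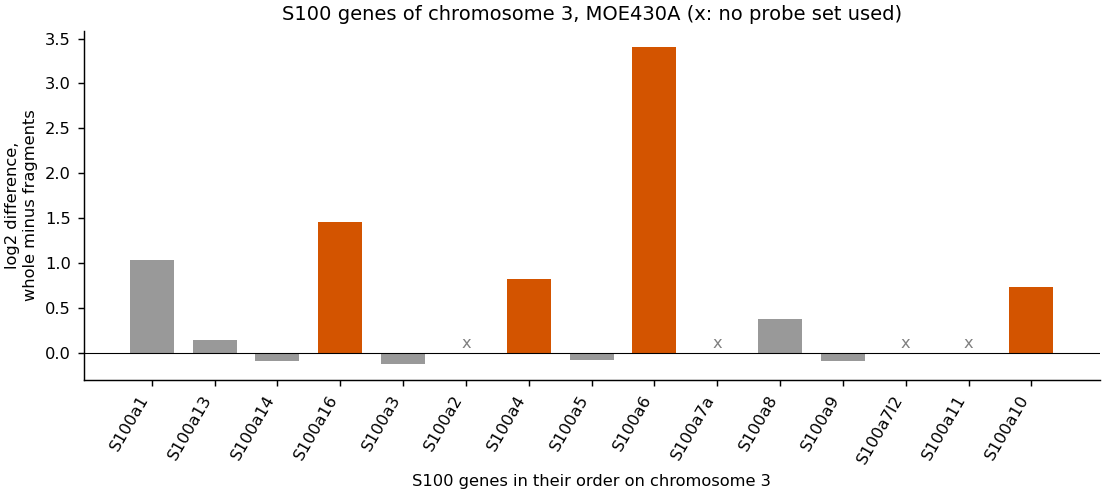
Log2 difference between whole embryo and fragments on MOE430A for the S100 genes of chromosome 3 in map order (brightest probe set, members of the group in orange, others in grey, x where no probe set was used); spacing is not to scale. Tall bars such as S100a6 (3.41) stand next to bars near 0 such as S100a5 (-0.081).

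Genes of both families outside the group were listed too. Of 12 other S100 genes 9 had a MOE430A probe set, and 1 of these, S100a1, was at least 2-fold higher in the whole embryo. The next were S100g (0.52), the intestinal calcium carrier calbindin-D9k, and S100a8 (0.38). Of 7 other annexin genes 6 were measured and 0 reached 2-fold. The widest were Anxa8 at 0.19, Anxa13 at -0.13 and Anxa9 at -0.12, the latter pair under the limit. The epithelial Anxa4, at 2692 in the whole embryo, lay inside its fragments (2146 to 3562), with Ad minus Pp at 0.37 (limma adjusted p = 0.370). Medians were -0.081 for the other S100 and -0.022 for the other annexin genes, close to the -0.059 of all probe sets. Only 4 of the 9 and 3 of the 6 passed the limit, and the pseudocount draws differences of dim probe sets towards 0. The 10 genes were chosen with results of this contrast known, and the cause of the split between them and their relatives was not tested.

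Among 9 genes of membrane scaffold and repair, 7 were above all fragments in the whole embryo (18.7% of all probe sets were), with a median log2 difference of 0.28, and 2 were at least 2-fold higher. Ahnak, a giant scaffold protein that binds S100a10 and annexin A2, was at 297 to 424 across fragments and 3671 for the whole embryo (log2 difference 2.62). Cav1, the coat protein of caveolae, was at 532 to 571 and 1737 (1.23), and Pdcd6ip, an adaptor of membrane repair, at 0.41. Of the plasminogen genes 5 were measured and 0 reached 2-fold: the receptor genes Plgrkt and Plaur were both at 0.33, and plasminogen itself (Plg) at -0.13. Of 9 receptors and targets 0 reached 2-fold. The helicase gene Hltf was at 0.41, the phospholipase gene Pla2g4a at 0.40, and the S100a4 target Myh9, non-muscle myosin heavy chain, at -0.40 with its highest value in Ad (5131 and 5365 against 4698 and 3396 in Pp). Over these 5 lists, 3 of 38 measured genes were at least 2-fold higher in the whole embryo on MOE430A (1.23% of all probe sets). In Ad minus Pp, 23 of the 38 were tested and 0 passed in limma either way. Ahnak, counted among the 23, was under the limit in the fragments and entered through the whole embryo alone. On MOE430B 5 were measured and 3 tested with 0 passing. Cd44 (0.84), Anxa4 (-0.37) and Myh9 (-0.36) were the widest there in whole embryo minus fragments.

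Markers of other tissues were measured beside these genes. Decidual stroma genes, of the maternal tissue around the implanted embryo, were high in the whole-embryo array. Of 13 such genes 8 were at least 2-fold above the fragments (1.23% of all MOE430A probe sets were). The summed signal of the list was 5986 to 7509.8 across fragments against 26137 for the whole embryo. Prl8a2 was at 241 to 564 and 6063, and Bmp2 at 156 to 566 and 2677. On MOE430B it was 5 of 7, with sums of 298 to 464 and 7095. Dcn was as far lower there (10.9 against 33.1 to 48.1), by a probe set that entered no test. On MOE430A, Dcn was above all fragments instead, at 780 against 539 to 624. Of all MOE430B probe sets 1.88% were as far higher and 0.937% as far lower. On MOE430A the Esr1 signal did not follow, at 816 in the whole embryo and 809 to 898 in the fragments. The MOE430B probe set of Esr1 was at 17.8 to 84.35 in fragments and 1999 in the whole embryo. Desmin (Des) and Pgr on MOE430A did not follow either, at 1136 and 592 in the whole embryo and up to 1274 and 707 in the fragments, though the MOE430B probe set of Pgr was at 78.2 to 101 and 991. Within the fragments, 5 of the 13 MOE430A genes were highest in Ad replicate 2 and 4 in Pp replicate 1. Another 3 were highest in Ad replicate 1 and 1 in Pp replicate 2. These counts too have no share over all probe sets beside them. In Ad replicate 2, Prl3c1 was at 812 against 86.9 to 96.9 in the other fragments, and S100a6 at 493. Pp replicate 2, with S100a6 at 458, had the lowest Prl3c1.

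Other lists gave fewer 2-fold differences. Of 7 measured ectoplacental and giant cell genes 2 were at least 2-fold higher in the whole embryo (sums 5198 to 6246 and 13311). Among all MOE430A probe sets 1.23% were as far higher. Of 10 parietal endoderm genes 8 were above all fragments (18.7% of all probe sets) and 0 reached 2-fold (sums 12032 to 17687 and 25534). Of 6 endothelial genes 5 were above all fragments, with a median log2 difference of 0.26. Of these 6, 1 reached 2-fold, Cdh5 (sums 4130 to 4624 and 6850). Of 7 blood and immune genes 3 were above all fragments and 0 reached 2-fold (sums 3221 to 3544 and 3582). The whole embryo was below all fragments in 6 of 10 visceral endoderm genes (median -0.27) and above them in 1, Dab2. It was below them in 7 of 8 epiblast genes (median -0.50). Over all MOE430A probe sets it was below all fragments in 43.8% and above them in 18.7%. The anterior visceral endoderm list had a median of 1.22 in Ad minus Pp, with 3 of 6 genes passing in limma. Among all tested MOE430A probe sets 0.169% passed. The part of each tissue in the S100 and annexin signal was not tested.

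**Figure D5:**
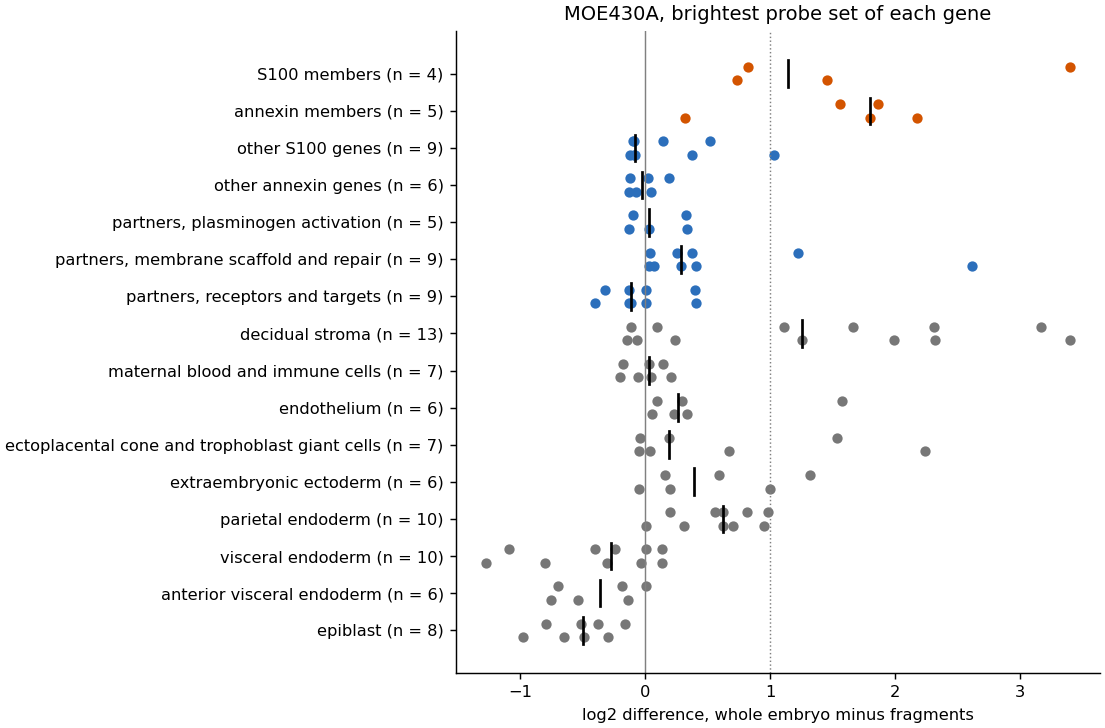
Log2 difference between whole embryo and fragments on MOE430A for each gene (points, brightest probe set) of the S100 and annexin members (orange), their relatives and partners (blue) and marker lists of other tissues (grey); black bars are medians and the dotted line is a 2-fold difference. Decidual stroma genes run from -0.15 for Esr1 to 3.40 for Prl8a2, while the epiblast genes all lie below 0.

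The genes nearest to S100a6 in pattern, by Euclidean distance between centred log2 profiles over the 5 MOE430A arrays, were Gsn (distance 0.39), Prl8a2 (0.47), Rgs2 (0.49), Pdgfc (0.52) and Igfbp3 (0.54). All of these probe sets had entered the test. Like S100a6, Prl8a2, Rgs2, Pdgfc and Igfbp3 had fragment means under the limit and entered through the whole embryo alone. Gsn, which encodes the actin-severing protein gelsolin, was at 373 and 496 in Ad, 416 and 656 in Pp and 6579.8 in the whole embryo. Pp replicate 2 and Ad replicate 2 were on top of its fragments, as for S100a6. These arrays were also on top for Prl8a2 (267 and 564, against 241 and 254). For Rgs2, Pdgfc and Igfbp3, Pp replicate 2 lay below Pp replicate 1 (424 against 495, 217 against 282 and 255 against 299). Nearest to Anxa1 were Serpinb9b (0.080), Slc22a5 (0.17), Igfbp4 (0.18), Hspb8 (0.18) and Bgn (0.24). Serpinb9b, a protease inhibitor gene, was at 639 and 674 in Ad, 645 and 639.9 in Pp and 3923 in the whole embryo. In both sets the whole-embryo array is far above the fragments, and 5 arrays cannot rank such profiles firmly.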

How the data were processed

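Signal intensity of each probe set was deposited by the authors in 2 tables, 1 for the 5 MOE430A and 1 for the 5 MOE430B arrays. Per the submitters' processing notes it was made with MAS5, and per the labels' protocols the RNA had been linearly amplified. For the MAS5 version, scaling target and floor, nothing was found in the sources used. Control probe sets, 64 per type, did not enter. A pseudocount at the 20th percentile of all values was added before the log2, probe sets with a mean above the 40th percentile were kept (13575 of 22626 and 13506 of 22511), and each array was centred on its median over them. The 3 kinds of sample were fitted per array type with limma 3.58.1 in R 4.3.3 (2 residual degrees of freedom), two-sided, with Benjamini-Hochberg adjustment over all kept probe sets. The whole embryo was set against the mean of the Ad and Pp means. For that contrast all probe sets were used, centred the same way. The script was tested on simulated data.

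Names came from the platform annotation, where 20393 MOE430A and 14674 MOE430B probe sets had 1 symbol, 691 and 245 several, and 1606 and 7656 none. The members and lists were chosen with earlier results of these data known. The brightest probe set of each gene is the one with the highest mean log2 value. Of the lists of other family members and partners, the text names the 3 genes per list that differ most between whole embryo and fragments, and for likeness the 5 nearest genes. Names outside these were chosen after their values were seen. No 2 arrays held identical values. The alternatives covered centring, pseudocount, filter, variance trend, replicate block and leaving out each fragment array.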

Additional observations from a re-analysis of the deposited data

How the results depend on the processing

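In every setting run, the count of member probe sets at least 2-fold higher in the whole embryo stayed within 1.5 times its value. That value was 7 on MOE430A and 1 on MOE430B, and those probe sets kept log2 differences of at least 1.10 and 3.05. The background moved too. With no pseudocount, 480 of all MOE430A probe sets were as far higher, against 278 in the main setting, and 9 member probe sets. On MOE430B it was 1249 against 423, and 1 member probe set. The count of member probe sets with the whole embryo above all fragments stayed 12 on MOE430A in every setting. On MOE430B the 2 became 1 with the pseudocount at the 40th percentile and with the filter at the 60th. In Ad minus Pp, 0 members passed in each setting that kept all arrays. Leaving out 1 array gave 0 to 3 passing members on MOE430A and 0 on MOE430B, and 1 to 805 and 0 to 131 passing probe sets in all, from fits whose spread rests on 1 pair. The number of all passing probe sets, 23 on MOE430A, was 46 with no centring. The 15 on MOE430B became 30 with the pseudocount at the 40th percentile, 2 with no filter, 26 with the filter at the 60th percentile and 30 with an intensity trend; the cause was not tested. With replicate numbers as a block, 24 and 29 probe sets and 0 members passed; nothing in the labels ties arrays of 1 number to each other, and same-numbered deviations correlated at -0.242 on MOE430A and -0.0392 on MOE430B. Paired crosswise on MOE430A, chosen after seeing the data, 47 passed and 0 members.

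Member differences between Ad and Pp near 0 turned sign in places. Anxa6 (-0.012) went to 0.056 with no centring, 0.0029 under quantile normalization and 0.017 with no filter. With 1 array left out, it ran from -0.17 to 0.14 (above 0 without Ad replicate 2 or Pp replicate 2), S100a6 from -0.45 to 0.23 (above 0 without Ad replicate 1 or Pp replicate 2), Anxa1 from -0.021 to 0.046 (below 0 without Ad replicate 2 or Pp replicate 1) and Anxa5 from -1.22 to 0.027 (above 0 without Pp replicate 2). On MOE430B, S100a16 ran from -0.23 to 0.0088 (above 0 without Ad replicate 4) and Anxa1 from -0.53 to 0.021 (above 0 without Pp replicate 4). Some dim probe sets dropped out under stricter filters and have no value there. With 2 arrays per fragment and 1 whole embryo, the S100a10 differences did not pass the adjustment over 13575 probe sets although both intervals exclude 0.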
